A study of Mus musculus with 98 samples.

Results

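The 7 genes Kcnj8, Abcc9, Rgs5, Cspg4, Mcam, Higd1b and Anpep were followed through mouse thymic stroma as genes of the pericyte potassium channel and of pericyte identity. They were taken as a named list and looked up by symbol, and all 7 were present among the 22231 genes of the single-cell age series, the 20760 genes of the single-cell newborn genotype series and the 39179 gene identifiers of the bulk series. The questions were where each gene was expressed in pericytes (Pc) relative to vascular smooth muscle (VSM) and fibroblasts, how that changed with age, and whether it differed between genotypes.

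Pericytes are contractile and supportive cells that sit on the outside of capillaries within the basement membrane, while vascular smooth muscle cells wrap the larger vessels. Both are called mural cells and share many genes. In many tissues pericytes carry an ATP-sensitive potassium channel whose opening hyperpolarises the membrane and relaxes the cell. Its pore is Kir6.1, encoded by Kcnj8, and its regulatory subunit is the sulfonylurea receptor SUR2, encoded by Abcc9. Rgs5 encodes a regulator that speeds the shut-off of G protein signals. Cspg4 encodes the surface proteoglycan NG2, Mcam the adhesion molecule CD146, Higd1b a mitochondrial protein with a hypoxia-induced domain, and Anpep the membrane aminopeptidase CD13.

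The age series held wild-type C57BL/6 stroma sorted as Ter119-CD45-EpCAM-, with 1 library each at E12.5 and E13.5, made from thymi pooled over litters, and 2 libraries each at E16.5, P0 and 4 weeks (W4). The genotype series held newborn (P0) Ter119-CD45- stroma kept in an RNA preservative, with 3 libraries labelled Tbx1+/-Crkl+/-, in which each of these genes has 1 altered copy in the germ line, and 3 from wild-type littermates (WT). Bulk RNA-seq covered sorted wild-type populations at P0 and 4 weeks with 6 libraries each: Ly51+gp38- cells, gp38+CD26- and gp38+CD26+ fibroblasts, CD31+ endothelium and several thymic epithelial cell (TEC) sorts. The labels do not say which libraries came from separate animals, so p-values measure the spread between libraries only. Depth was 28583048 to 93040640 UMIs a library in the age series and 4978011 to 31418527 in the genotype series, and 5785352 to 15852166 gene counts a library in bulk apart from 1 gp38+CD26+ library at 4 weeks with 25702 counts. That library had a summed TEC marker level of 19026 CPM against a fibroblast marker level of 2996 CPM, opposite to its label. Of 36208 cells in the age series 310 carried a barcode that another library also held, as did 88 of 21451 in the genotype series.

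Pc, VSM and fibroblast names were the deposited subtype annotation, which was built from the same counts, so levels between subtypes are given as a description with no test. Unless stated otherwise, a level is the UMIs of a gene summed over the cells of a subtype in a library, scaled to counts per 1e+06 UMIs of those cells (CPM). Pc counted 65 cells at E12.5, 147 at E13.5, 875 and 962 at E16.5, 436 and 860 at P0, and 440 and 336 at W4. In these Pc the summed level of 8 VSM markers was 2396 to 6502 CPM, that of 7 fibroblast markers 1524 to 3416 CPM and that of 8 endothelial markers 36.3 to 195 CPM. The sum of 7 pericyte markers, 5 of them members, was 1390 CPM at E12.5 and 1012 at E13.5, below the VSM marker sums of 5764 and 2596 in the same Pc, so the markers did not bear out the pericyte label at these 2 ages. It was 3696 and 3769 at E16.5 and 11988 and 12008 at W4, above the VSM sums there. At P0 it was 6187 and 6475 CPM beside VSM sums of 6502 and 3106, so in P0 replicate 1, which enters both tested intervals, the VSM sum was the higher. In cells labelled VSM the pericyte marker sum was 5372 to 5528 CPM at E16.5, 5140 to 7806.5 at P0 and 14503 to 15928.5 at W4. At E16.5 and W4 it was above that of Pc, so this sum did not set Pc apart from VSM. Data and label parted for 5 of the 7 genes: at W4 only Kcnj8 and Abcc9 were highest in Pc among 19 subtypes, while Rgs5, Cspg4 and Higd1b were highest in VSM, Mcam in VSM and neural crest cells (NCC) without an order between them, and Anpep in capsular fibroblasts. NCC were only 7 cells in each W4 library, so their levels rest on few UMIs.

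Kcnj8 and Abcc9 are neighbours on chromosome 6 of GRCm38, both on the minus strand. Kcnj8 lies at chr6:142564837-142571614 and Abcc9 at chr6:142587862-142702315, with 16247 bases and no annotated gene between them. Rgs5 is at chr1:169655501-169695813 on the plus strand. The bases just before the starts of these 3 genes are printed because Kcnj8 and Abcc9 were the pair that followed Pc, whereas Rgs5 followed both mural cell types. They come from RefSeq on GRCm38.p6, run 5′ to 3′ on the strand of each gene, and stop before the first base of the gene model. Kcnj8 covers chr6:142571615-142571864, Abcc9 chr6:142702316-142702524 and Rgs5 chr1:169655251-169655500. Capitals mark matches to motifs searched on both strands.
Kcnj8: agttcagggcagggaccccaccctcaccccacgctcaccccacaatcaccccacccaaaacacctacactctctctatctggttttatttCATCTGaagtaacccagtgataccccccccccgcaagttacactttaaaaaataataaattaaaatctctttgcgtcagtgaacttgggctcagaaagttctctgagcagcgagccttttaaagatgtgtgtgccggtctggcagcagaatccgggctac
Abcc9: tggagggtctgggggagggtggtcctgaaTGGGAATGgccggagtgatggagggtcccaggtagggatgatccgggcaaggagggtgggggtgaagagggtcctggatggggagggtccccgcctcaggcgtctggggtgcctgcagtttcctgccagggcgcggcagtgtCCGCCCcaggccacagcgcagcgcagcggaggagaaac
Rgs5: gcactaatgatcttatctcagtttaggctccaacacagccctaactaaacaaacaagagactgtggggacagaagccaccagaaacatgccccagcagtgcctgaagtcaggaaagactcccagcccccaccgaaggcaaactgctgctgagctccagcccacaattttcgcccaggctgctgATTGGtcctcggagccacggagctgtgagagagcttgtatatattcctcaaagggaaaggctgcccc
There were 7 motifs searched, each named here with its share of all windows. The Kcnj8 window held 1 match, the E box CANNTG as CATCTG, 160 bases before the start, a motif found in 66.22% of 32851 mouse promoter windows. The Abcc9 window held TGGGAA (21.59% of windows), CATTCC read on the other strand as GGAATG (12.64%), which overlaps it, and the GC box GGGCGG read as CCGCCC (32.74%). The Rgs5 window held CCAAT read as ATTGG (33.85%). The TATA box TATAAA (12.37% of windows) and a CArG box (1.467%) were not matched in the Kcnj8 and Rgs5 windows. The Abcc9 window has 209 bases and ends before the gene model, upstream of the RefSeq start site at position 142702274, so the bases next to that site were not searched and its matches are from a shorter stretch than the shares. The share of G and C was 49.2% for Kcnj8, 68.42% for Abcc9 and 53.6% for Rgs5, against a median of 52.4% over all windows. No match was common to the Kcnj8 and Abcc9 windows, and a match is a description of letters and not a binding site.

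At W4, Kcnj8 stood far above every other subtype in Pc. Its level there was 1873 and 1772 CPM in the 2 libraries (mean 1822.5 ± 71.5, SD, n = 2). Proliferating cells (Pr) followed at 247 ± 87.8 and medullary fibroblasts MedFb2a at 226 ± 59.8, and the ranges of these 2 subtypes overlapped. VSM came in place 7 of 19 at 61.4 and 51.5 CPM. The lowest level, 2.33 ± 0.693, was in capsular fibroblasts CapFb4. Abcc9 followed the same outline at the top, with 893 and 778 CPM in Pc (836 ± 81.1, n = 2), 221 ± 31 in MedFb2a, 150.6 ± 24.1 in MedFb2b and 123 ± 16.9 in Pr. MedFb2b and Pr overlapped. VSM came in place 9 with 66.1 and 55.5 CPM, within the range of CapFb1a, and no UMI of Abcc9 was found in the 14 NCC. For both channel genes the MedFb2a cells, and not VSM, were therefore the class nearest to Pc among the non-dividing cells.

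Rgs5 had the reverse order within mural cells. It was 13723 and 12486 CPM in VSM against 7039 and 7202 CPM in Pc, and the ranges did not overlap. Arterial endothelium (EnA) came next with 580 and 2407 CPM, a spread between the 2 libraries so wide that it held the value of Pr (1044 ± 223). No UMI of Rgs5 was found in the 14 NCC.

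The 2 surface molecules also leaned to VSM. Cspg4, at chr9:56865033-56899870, was 221 and 204 CPM in VSM, 159 ± 49.3 in NCC (9 and 3 UMIs) and 88.7 and 104 in Pc. VSM and Pc did not overlap, and NCC at so few UMIs was not placed between them. The level was 24.5 ± 5.15 in Pr, the next subtype. Mcam, at chr9:44134469-44142727 on the same chromosome, was 317 and 356 CPM in VSM, 328 ± 114 in NCC and 275 and 303 in Pc. These 3 could not be put in order, since VSM overlapped NCC and NCC overlapped Pc. Mcam was also found in endothelium, with 164 ± 36 CPM in EnA, 162 ± 12.9 in venous and lymphatic endothelium and 129 ± 19.6 in capillary endothelium. Cspg4 had no UMI in venous and lymphatic endothelium.

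Higd1b, at chr11:102835849-102838040, was 530 and 567 CPM in VSM and 413 and 506 in Pc, a narrow gap without overlap, with Pr (69.7 ± 16.7) and MedFb2a (69.5 ± 12.7) far below. Anpep, at chr7:79821803-79861059, had no mural pattern. Its level was 210 ± 0.30 CPM in CapFb2b, 174 ± 20.4 in CapFb3 and 164 ± 28 in CapFb4, and every capsular fibroblast subtype exceeded Pc, which came in place 12 with 66.3 and 62.4 CPM. VSM was lower still at 33.5 and 46.6 CPM. On the log2 scale the W4 ratio of Pc to all fibroblasts was 4.80 for Kcnj8, 3.22 for Abcc9, 5.88 for Rgs5, 3.45 for Cspg4, 4.75 for Mcam and 4.85 for Higd1b, but −1.03 for Anpep.

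**Figure D1:**
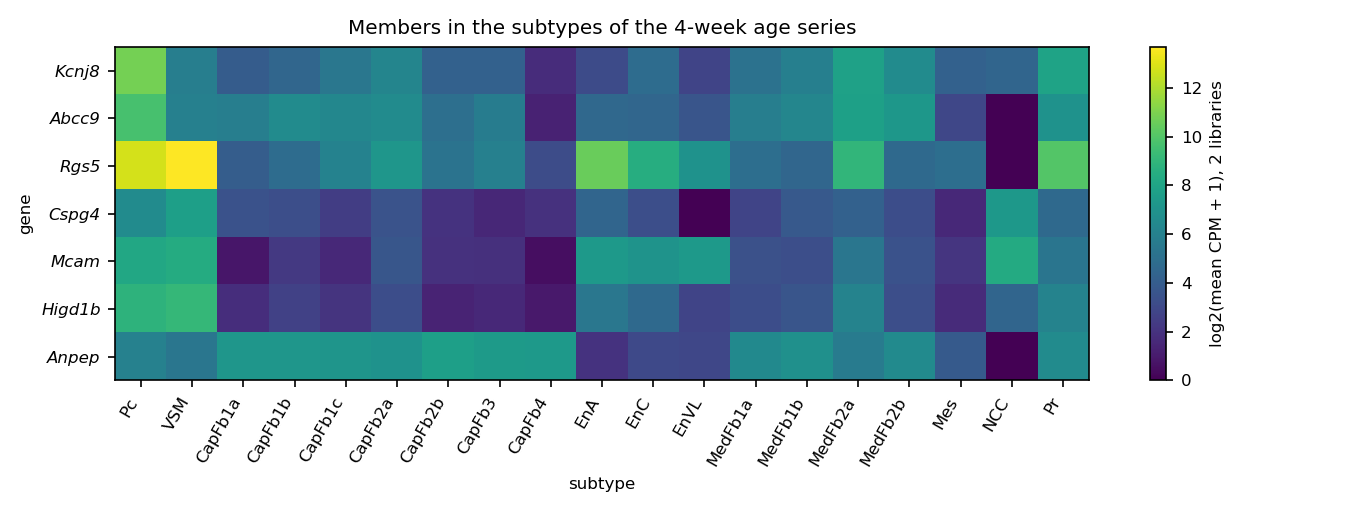
Heat map of the mean level of each of the 7 genes, as log2(CPM + 1), in the 19 subtypes at W4 (n = 2 libraries). Kcnj8 and Abcc9 are brightest in Pc (1822.5 and 836 CPM), Rgs5, Cspg4 and Higd1b in VSM, Mcam in VSM and NCC with overlapping libraries, and Anpep in capsular fibroblasts (CapFb2b, 210 CPM).

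The channel genes were found in most single pericytes. After each cell was thinned to 2000 UMIs, Kcnj8 had at least 1 UMI in 86.22% of Pc at W4 and Abcc9 in 73.34% (769 cells). Without thinning the shares were 96.13% and 92.4% of 776 cells with a median of 5029.5 UMIs. Endothelium, the comparison type outside the mural and fibroblast classes, gave 2.026% and 2.503% of 839 thinned cells, and 4.724% and 6.797% unthinned at a median of 5888.5 UMIs. VSM gave 8.946% and 12.3% at a median of 6365 UMIs, above the endothelial shares, and MedFb2a 33.67% and 32.83%. Free RNA and a low level in endothelium itself cannot be told apart here, since bulk CD31+ cells held Abcc9 at 22.2 to 71.1 CPM in all 6 libraries at P0. At 4 weeks, the age of these shares, bulk CD31+ cells held Abcc9 at 1.25 to 28.3 CPM and Kcnj8 at 0 to 15.4. Both genes were found in 66.84% of thinned Pc and 2.875% of thinned VSM. Among Pc with a Kcnj8 UMI 77.53% also had one of Abcc9, against 47.17% of Pc without. At P0 these shares were 65.2% and 43.89%, but at E16.5 they were 49.96% and 48.27%. They were 25.45% and 20.65% at E13.5, and 7.143% and 10.0% at E12.5 (64 cells). In newborn Pc they were 60.38% and 58.06% in WT, and 61.82% and 51.93% in those labelled Tbx1+/-Crkl+/-. The gap at W4 was thus not found in all groups of Pc. All these shares carry counting error only, and cells of a library are not replicates.

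Of the other members, Rgs5 was found in 99.61% of thinned W4 Pc, Higd1b in 50.46%, Mcam in 42%, Cspg4 in 16.51% and Anpep in 11.31%. A W4 pericyte had UMIs of 3.795 of the 7 genes on average at this depth, and 61.64% of Pc had 4 or more, against 17.73% of VSM and 1.337% of fibroblasts. The average number of members per thinned Pc was 1.109 at E12.5, 1.184 at E13.5, 3.126 at E16.5 and 3.558 at P0.

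Within Pc, the channel pair and Rgs5 climbed in CPM from embryo to 4 weeks. Kcnj8 read 146.1 CPM at E12.5, 266 at E13.5, 841 and 825 at E16.5, 1053 and 1230 at P0 and 1873 and 1772 at W4. Abcc9 read 49.8, 140, 350 and 346, 468 and 526, and 893 and 778 CPM in the same order. No library of 1 age reached the range of the next for either gene. Rgs5 dipped between the first 2 libraries, from 854 CPM at E12.5 to 300.2 at E13.5, then read 1424 and 1405 at E16.5, 3209 and 3214 at P0, and 7039 and 7202 at W4. From E16.5 onwards the ages were far apart and the 2 libraries within an age close together. The share of thinned Pc with Kcnj8 went the same way, being 21.88%, 37.41%, 76.42%, 82.87% and 86.22% over the 5 ages, and the share with both channel genes was 1.562%, 9.524%, 38.18%, 54.03% and 66.84%. Unthinned, Kcnj8 was found in 69.23%, 86.39%, 98.58%, 97.45% and 96.13% of Pc, whose median depth fell over the same ages from 17597 to 5029.5 UMIs. The 875 and 962 Pc at E16.5 held 8291 and 8896 Kcnj8 UMIs, and the 440 and 336 at W4 held 4433 and 3266. From E16.5 on, the Kcnj8 climb was thus one relative to all UMIs of the cells. Levels of the other members are relative in the same way.

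The remaining members had other courses. Cspg4 in Pc was 48.1, 58.8, 125.7 and 112.3, 115.2 and 104.3, and 88.7 and 104 CPM over the same 5 ages, with E16.5 and P0 overlapping above the first 2 libraries. Mcam was 105, 75.8, 155.5 and 142.5, 193 and 198, and 275 and 303 CPM. Higd1b had no UMI at E12.5 and 3.14 CPM at E13.5. It then stood at 393 and 387, 437 and 430, and 413 and 506 CPM. In CPM it was thus on by E16.5 and level from there. The 875 and 962 Pc at E16.5 held 3870 and 4171 Higd1b UMIs, and the 440 and 336 at W4 held 977 and 933. For Mcam the same Pc held 1533 and 1537 UMIs at E16.5, and 651 and 559 at W4. Anpep went from 6.75 and 11.7 CPM in the first 2 ages to 55.3 and 59.2, 70.2 and 71.7, and 66.3 and 62.4.

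Tested over all 5 ages in Pc with edgeR's quasi-likelihood test and Benjamini-Hochberg adjustment over all genes, 7 of 7 members changed (adjusted p 1.8e-10 to 1.5e-05), where 68% of all 12556 genes did. With the 3 replicated ages alone Higd1b was not called (adjusted p = 0.45), and its 2 early libraries held 0 and 3.14 CPM. From E16.5 to P0, 3 of 7 members were called against 19% of all genes. Rgs5 rose by a log2 fold change of 1.0 ± 0.07 (SE, adjusted p = 1.6e-05) and Abcc9 by 0.33 ± 0.10 (adjusted p = 0.038), and Cspg4 changed by −0.31 ± 0.10 (adjusted p = 0.048). The last 2 calls were fragile: Abcc9 lost it without either E16.5 library, without P0 replicate 2 and in DESeq2 (adjusted p = 0.056), and Cspg4 without either E16.5 or either W4 library, without P0 replicate 2 and in DESeq2 (0.49). Kcnj8 gave 0.27 ± 0.09 and missed the threshold (adjusted p = 0.067), but passed without P0 replicate 1, at 0.38 (adjusted p = 0.0016). Mcam, Higd1b and Anpep gave 0.20 ± 0.09, −0.03 ± 0.11 and 0.13 ± 0.08 without a call.

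From P0 to W4, 6 of 7 members were called in Pc, against 32.9% of all genes. Rgs5 rose by 0.96 ± 0.07 (edgeR adjusted p = 1.6e-06), Abcc9 by 0.56 ± 0.10 (0.0011), Kcnj8 by 0.48 ± 0.09 (0.0021) and Mcam by 0.37 ± 0.10 (0.011), while Cspg4 and Anpep fell, with −0.38 ± 0.11 (0.023) and −0.33 ± 0.10 (0.026). Higd1b, at −0.11 ± 0.11, was not called. The Cspg4 call was lost without W4 replicate 1 and in DESeq2, the Mcam call without W4 replicate 2, and the Anpep call without either E16.5 or either W4 library, without P0 replicate 2 and in DESeq2 (adjusted p = 0.39). Fold changes are relative to the scaling of the fit: on plain CPM the median gene of Pc moved by 0.17 from E16.5 to P0 and by 0.20 from P0 to W4 on the log2 scale, and plain CPM gave Higd1b 0.15 and 0.08, of opposite sign to the fit.

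Other values moved with age in Pc. The summed level of 6 stress genes was 14331 to 14979 CPM at E16.5, 14009 to 14533 at P0 and 4904 to 5649 at W4, and that of VSM markers 2396 to 2674, 3106 to 6502 and 2731 to 2956. The sum of 6 TEC markers was 6.999 to 9.74, 12.2 to 23.9 and 68.4 to 76.1 CPM and that of 6 haematopoietic markers 13.4 to 14.3, 27.96 to 34.7 and at least 60.2, both higher at each of these ages without overlap. Fibroblast markers summed to 1524 to 1561, 2196 to 3416 and 1624 to 1954 CPM and endothelial markers to 194 to 195, 118.5 to 122.1 and 160.1 to 168.7, both with P0 apart from the ages beside it. The sum of 3 erythroid markers ranged from 87.3 to 428, 124.3 to 1691 and 427 to 2917 CPM. Median UMIs per Pc went from 10709 and 10687.5 at E16.5 to 7738.5 and 6934 at P0 and 5074 and 4941.5 at W4. The part of these in the members' changes was not tested.

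**Figure D2:**
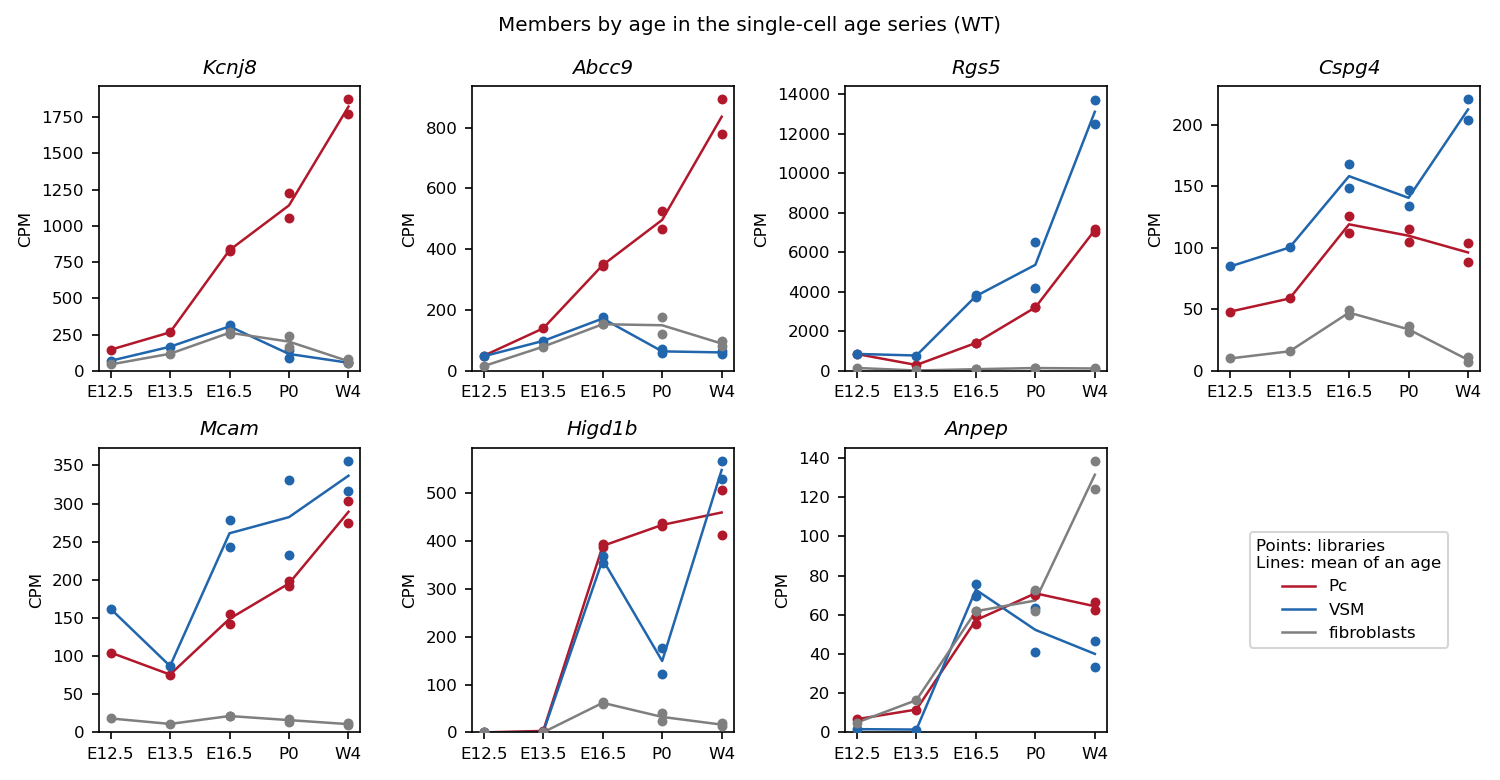
Level of each of the 7 genes in CPM (linear axis) in Pc, VSM and fibroblasts from E12.5 to W4. Each point is 1 library and lines join the means. Kcnj8 climbs in Pc to 1822.5 CPM while it sinks in VSM to 56.4 CPM, and Rgs5 climbs in both.

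In VSM of the age series the channel genes moved the other way after E16.5. Kcnj8 was 69.8 CPM at E12.5, 166.7 at E13.5, 319 and 295 at E16.5, 90.8 and 143.1 at P0, and 61.4 and 51.5 at W4. Abcc9 was 48.2, 98.7, 166.8 and 177.8, 57.4 and 71.3, and 66.1 and 55.5 CPM. E16.5 was the peak for both, and the P0 libraries lay below it without overlap. Between E16.5 and P0, 3 of 7 members were called in VSM, where 8.76% of all genes were and 4.49% fell, and all 3 fell, with Kcnj8 at −1.39 ± 0.19 (edgeR adjusted p = 0.0047), Abcc9 at −1.41 ± 0.13 (0.0011) and Higd1b at −1.27 ± 0.16 (0.0031). Without E16.5 replicate 1 or 2, Kcnj8 missed the threshold (adjusted p = 0.070 and 0.059), as did Higd1b without E16.5 replicate 1 (0.056), while Rgs5 passed it without P0 replicate 1 (0.00012) and Anpep without P0 replicate 2 (0.018).

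Between P0 and W4, 4 of 7 members were called in VSM, against 22.6% of all genes. Kcnj8 fell again, with −1.12 ± 0.21 (edgeR adjusted p = 0.008), and missed the threshold without W4 replicate 2 (0.073). Higd1b rose by 1.82 ± 0.16 (3e-04) after its earlier fall, from 122.3 and 176.1 CPM at P0 to 530 and 567 at W4, Rgs5 by 1.23 ± 0.17 (0.0022) and Cspg4 by 0.53 ± 0.11 (0.01). Abcc9 gave −0.15 ± 0.14 and was not called, and Cspg4 lost its call without W4 replicate 1 (0.078). Anpep passed without P0 replicate 1 (0.019) and Mcam without P0 replicate 2 (0.019). The stress gene sum in VSM was 6297 to 6319 CPM at E16.5, 17195 to 20267 at P0 and 8495 to 8566 at W4, highest at P0, where Higd1b was lowest of these 3 ages. Over the same ages the sum of VSM markers was 12094 to 14183, 17759 to 20502 and 18713 to 21115 CPM, that of fibroblast markers 857 to 962, 1250 to 2692 and 641 to 2627, that of endothelial markers 75.4 to 94.4, 37.1 to 40.95 and 45.3 to 109.8, and that of erythroid markers 60.5 to 78.4, 67.1 to 1378 and 2713 to 6132. TEC markers summed to 7.71 to 7.93, 5.22 to 21.4 and 29.98 to 60.5 CPM and haematopoietic markers to 11.7 to 12.4, 17.02 to 34.03 and 59.97 to 98.7. The part of these sums in the members' changes was not tested.

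The difference between Pc and VSM in these changes was tested directly, with the library as a block. From E16.5 to P0 it passed for 3 of 7 members, where 4.52% of all genes passed: Kcnj8 1.67 ± 0.13 (edgeR adjusted p = 3.5e-05), Abcc9 1.73 ± 0.12 (9e-06) and Higd1b 1.24 ± 0.16 (0.00096), all towards Pc. From P0 to W4 it passed for 4 of 7, where 4.4% of all genes passed. Kcnj8 (1.57 ± 0.14, adjusted p = 0.00017) and Abcc9 (0.70 ± 0.12, 0.0066) again moved towards Pc, whereas Higd1b (−1.95 ± 0.16, 0.00017) and Cspg4 (−0.91 ± 0.14, 0.0036) moved towards VSM. Rgs5 did not differ past the threshold in either interval, at 0.51 ± 0.15 (0.077) and −0.30 ± 0.14 (0.34), but it passed in both without P0 replicate 2 (3.7e-06 and 0.00011) and with no filter on low counts (4.6e-13 and 4.9e-05). Mcam and Anpep were not called, although Anpep passed in the first interval without P0 replicate 2 (0.91, adjusted p = 0.0034) and Mcam in the second without P0 replicate 1 (0.38, 0.018). Without E16.5 replicate 1 Higd1b missed the threshold in the first interval (0.052), and without W4 replicate 1 Cspg4 did in the second (0.051). Both intervals share the P0 libraries, so they are not independent of each other. The paper names Kcnj8 as a gene that marked its pericytes at 4 weeks, and the labels came from the same counts. The boundary between Pc and VSM is thus not independent of the members, above all Kcnj8, and the p-values do not allow for this.

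In the age series the outcome was a widening gap for the channel pair. The log2 ratio of Pc to VSM for Kcnj8 was 1.06 at E12.5, 0.67 at E13.5, and on average 1.44 at E16.5, 3.32 at P0 and 5.02 at W4. For Abcc9 it was 0.05, 0.50, 1.02, 2.96 and 3.78. Rgs5 stayed on the VSM side from E13.5 on, at −1.38, −1.42, −0.71 and −0.88. The Higd1b ratio had no direction in common across ages, at 0.11 at E16.5, 1.56 at P0 and −0.26 at W4, and Mcam and Cspg4 were below 0 at all 5 ages. The newborn WT libraries, also P0 but of another sort and kept in a preservative, had lower ratios than P0 here. They were 1.78 ± 0.20 (SD, n = 3) for Kcnj8 and 2.07 ± 0.29 for Abcc9. Their VSM held Kcnj8 at 240 to 307 CPM and Abcc9 at 98.5 to 177, above both P0 ranges of the age series. The low P0 levels in VSM were thus not repeated there. The cells labelled VSM also differed in other values between the series. VSM markers summed to 6686 to 11598 CPM in newborn WT VSM and 17759 to 20502 in P0 VSM of the age series. TEC markers summed to 316 to 582 and 5.22 to 21.4 CPM in the same order. The difference between the series, and the part of these sums in it, was not tested.

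**Figure D3:**
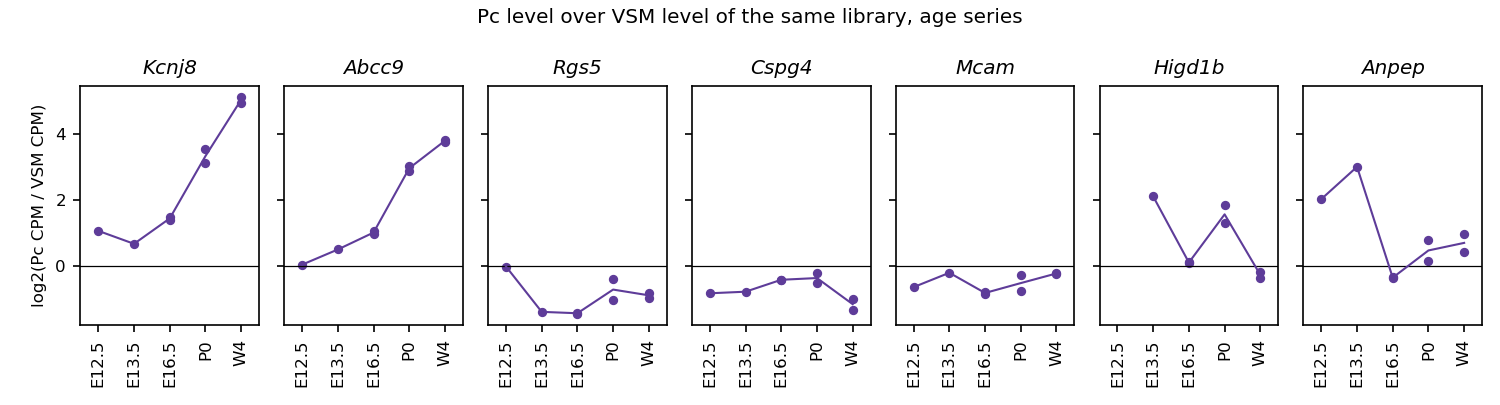
Log2 ratio of the Pc level to the VSM level of each of the 7 genes in each library, by age, with 0 marking equal levels. Kcnj8 goes from 1.44 at E16.5 to 5.02 at W4 and Abcc9 from 1.02 to 3.78, while Rgs5 stays below 0.

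The number of Pc called per VSM cell differed between ages, from 2.888 and 3.064 at E16.5 to 0.971 and 1.392 at P0 and 1.447 and 1.028 at W4. Because the line between both subtypes was drawn from the same counts, levels were also taken over Pc and VSM together, an alternative added after seeing the data. Kcnj8 was then 696 and 688 CPM at E16.5, 491 and 704 at P0, and 1018 and 787 at W4, with E16.5 inside the range of P0. Abcc9 was 299 and 302, 228 and 306, and 503 and 365 CPM. For Rgs5 the climb was as clear as in Pc alone, with 2096 and 2003, 3781 and 4824, and 10195 and 10227 CPM. For the channel pair, E16.5 and P0 were thus apart in Pc but not over both subtypes together, and the part of the subtype boundary was not tested.

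In fibroblasts, with all subtypes summed and their shares not held fixed, the members other than Anpep were below their Pc levels from E16.5 on. From E16.5 to P0, 4 of 7 were called, where 24.1% of all genes were: Rgs5 rose by 0.62 ± 0.17 (edgeR adjusted p = 0.042), while Cspg4 (−0.59 ± 0.16), Mcam (−0.51 ± 0.15) and Higd1b (−1.03 ± 0.26) fell. Kcnj8 gave −0.48 ± 0.20, Abcc9 −0.13 ± 0.17 and Anpep 0.02 ± 0.10 without a call. From P0 to W4, 6 of 7 were called against 51.4% of all genes. Kcnj8 fell, with −1.59 ± 0.21 (adjusted p = 0.00098), from 166 and 238 CPM at P0 to 79.4 and 54.2 at W4, as did Abcc9 with −0.73 ± 0.18 (0.013), Cspg4 with −1.92 ± 0.18 (0.00026), Mcam with −0.57 ± 0.16 (0.023) and Higd1b with −1.0 ± 0.27 (0.022), while Rgs5, at −0.23 ± 0.17, was not called. Anpep was the 1 member that rose, by 0.99 ± 0.10 (0.00029), from 72.9 and 61.7 to 124.4 and 138.5 CPM. The earlier interval rested on single libraries: no member was called without E16.5 replicate 1 or 2, and 6 were without P0 replicate 2. Mcam also missed the threshold there without either W4 library and Rgs5 without P0 replicate 1. In the later one Abcc9, Higd1b and Mcam lost their calls without W4 replicate 2, Mcam also without either E16.5 library (both 0.052) or P0 replicate 2 (0.0503), and Rgs5 passed without W4 replicate 1 (0.023). Over E16.5, P0 and W4 the fibroblast sums of stress genes were 8811 to 8863, 13150 to 16349 and 9126 to 10179 CPM, those of VSM markers 221.3 to 224.8, 283.7 to 448 and 221.8 to 285.8, those of fibroblast markers 14350 to 14743, 16948 to 22368 and 27740 to 29095, those of endothelial markers 99.1 to 102.8, 57.98 to 69.7 and 112.5 to 125.7, those of TEC markers 5.99 to 7.94, 6.11 to 15.5 and 18.4 to 28.2, those of haematopoietic markers 10.2 to 11.98, 12.6 to 25.1 and 34.8 to 68.3, and those of erythroid markers 385 to 704, 181.8 to 275.8 and 1249 to 2001. Their part was not tested.

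Genes of the same pathways were read from fixed lists beside the members. Of 25 other pericyte genes, 14 rose and 3 fell in Pc from E16.5 to P0 (median log2 change 0.42), with Art3 at 1.31 ± 0.09 and the ferric reductase gene Steap4 at 1.18 ± 0.09 the largest rises and the semaphorin and VEGF receptor gene Nrp1 at −0.34 ± 0.11 and Ndufa4l2 at −0.32 ± 0.09 the largest falls. From P0 to W4, 10 rose and 4 fell (median 0.13), with the RGS gene Rgs4 at 1.90 ± 0.09, Steap4 at 1.57 ± 0.09, the matrix gene Postn at −1.42 ± 0.09 and Colec11 at −1.0 ± 0.12. Of 21 tested ion channel genes of mural cells, 8 rose and 1 fell in the first interval and 10 rose and 3 fell in the second. The calcium-permeable channel Trpc6 rose in both, by 2.31 ± 0.17 and 2.02 ± 0.13, the potassium leak channel Kcnk3 by 1.46 ± 0.12 in the first, and the calcium channel Cacna1c by 1.32 ± 0.18 in the second. The largest falls in the second were those of the calcium channel Cacna1h and the potassium channel subunit Kcnab1, at −1.61 ± 0.44 and −1.36 ± 0.25. All genes together had a share of 9.66% rising and 9.37% falling in the first interval and 15.2% and 17.7% in the second.

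Gene families of the members were read in the same way. In the R4 family of RGS regulators, Rgs5 included, 3 of 5 tested rose and 1 fell from E16.5 to P0, and 3 rose and 2 fell from P0 to W4, where Rgs16 changed by −2.04 ± 0.10 and Rgs2 by −0.83 ± 0.24. Beside Rgs5, Rgs4 rose by 0.68 ± 0.09 in the first interval and 1.90 ± 0.09 in the second, and Rgs3 was the gene that fell in the first, at −0.47 ± 0.08. None of the 3 tested HIG1 domain genes, Higd1b among them, was called in either interval. Of 6 tested membrane peptidases 3 rose in the first interval and 3 in the second, when Anpep was the 1 that fell. The largest rises were those of Ece1 (0.94 ± 0.16) and Enpep (0.68 ± 0.17) in the first and of Enpep (2.79 ± 0.15) and Lnpep (0.84 ± 0.11) in the second. Of 6 tested partners of NG2 and CD146, 1 rose in the first interval, Pdgfrb, the receptor that recruits pericytes, at 0.55 ± 0.09. In the second 2 rose and 2 fell, Kdr at 1.79 ± 0.54, Pdgfrb at 0.60 ± 0.09, Wnt5a at −1.81 ± 0.35 and Lama4 at −0.39 ± 0.11, where Kdr is 1 of the 8 endothelial markers, whose sum in Pc was also higher at W4 than at P0. The pore and receptor genes of the pancreatic form of the channel, Kcnj11 and Abcc8, did not pass the filter on low counts in Pc, so the 2 channel genes tested were the members themselves. In bulk Ly51+gp38- cells at 4 weeks Kcnj11 was at 0 in 5 of 6 libraries and 0.86 CPM in the other, whereas Abcc8 was at 0 in 3 and reached 26.5 CPM (mean 6.93 ± 10.56, SD, n = 6).

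In the newborn genotype series none of the 7 genes was called in Pc, VSM or fibroblasts. Kcnj8 in Pc was 882, 921 and 623 CPM in those labelled Tbx1+/-Crkl+/-, against 936, 879 and 1091 CPM in WT (3 libraries each). Abcc9 was 636, 572 and 440 against 660, 618 and 402, and Rgs5 1719, 1486 and 1429 against 1569, 2187 and 2063. The ranges of the groups overlapped for all 3 genes. With edgeR's quasi-likelihood test, 0 of 7 members were called in Pc, where 0.08% of 10003 genes were (553 at an unadjusted p under 0.05, and 4 called by DESeq2). Kcnj8 gave −0.30 ± 0.25 (SE, adjusted p = 0.97), Abcc9 −0.05 ± 0.24, Rgs5 −0.36 ± 0.26, Mcam −0.06 ± 0.22, Cspg4 0.01 ± 0.21 and Higd1b −0.20 ± 0.26. Anpep had the largest size of the 7, at −0.48 ± 0.24 (0.93), with 34.9, 33.6 and 53.6 CPM against 53.1, 60.4 and 54.3, ranges that met through 1 library of each group.

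In VSM the members lay between −0.27 ± 0.32 (Anpep) and 0.01 ± 0.28 (Abcc9) and in fibroblasts between −0.34 ± 0.20 (Anpep) and 0.14 ± 0.21 (Higd1b), with Kcnj8 at −0.07 ± 0.25 and −0.33 ± 0.21. VSM gave 0 of 7 called (0.0308% of all genes, 324 at an unadjusted p under 0.05, 0 by DESeq2) and fibroblasts 0 of 7 (0% of all genes, 1007 at an unadjusted p under 0.05, 13 by DESeq2). The difference between the changes of Pc and VSM gave 0 of 7 as well (0.0105% of all genes, 465 at an unadjusted p under 0.05, 0 by DESeq2). In simulated data with this design, a 2-fold change in Pc was called for 67% and a 4-fold change for 99% of changed genes, so changes of 2-fold or less could have been missed. The log2 ratio of Pc to VSM for Kcnj8 was 1.78 ± 0.20 (SD, n = 3) in WT and 1.56 ± 0.21 in the 3 libraries of the other genotype, and that of Abcc9 2.07 ± 0.29 and 2.01 ± 0.24. Rgs5 was on the VSM side in both, at −0.98 and −1.06.

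Some other measures differed between the genotype labels. The sum of 6 TEC markers in Pc was 708 to 1313 CPM in the libraries labelled that genotype and 433 to 634 in WT, without overlap. In fibroblasts TEC markers were 538 to 1120.5 against 409 to 520, and fibroblast markers 8178 to 10887 against 11536 to 15126. Neural crest and glial markers there were 6.87 to 12.4 against 1.93 to 6.36. Stress genes in VSM were 7290 to 8519 against 8578 to 10355. None of these overlapped, and their part in the members' values was not tested. They were picked from all marker lists in Pc, VSM and fibroblasts for lack of overlap. The other sums overlapped, as did TEC markers in VSM (543 to 1045 against 316 to 582 CPM). With 3 libraries a group some sums can part by chance, and no excess over chance is read from these. Of all cells, 27.5 to 35.04% had under 2000 UMIs in the first group and 10.07 to 28.25% in WT. Tbx1 had 0, 0 and 8 UMIs in the first group and 13, 6 and 19 in WT over whole libraries, and Crkl 23.6 to 26.9 against 18.4 to 25.1 CPM. Since 3′ tags may lie outside the altered part of a gene, these levels do not check the genotype. Kcnj8 was found in 70.24% of 783 thinned Pc of the first group and 79.28% of 1197 in WT, or 74.02% and 83.59% unthinned at medians of 2361 and 3358 UMIs. WT endothelium gave 10.87% thinned and 16.18% unthinned at a median of 2802 UMIs, and WT MedFb2a cells 63.01% thinned. The endothelial shares were higher than those of the age series at W4, which is another age.

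**Figure D4:**
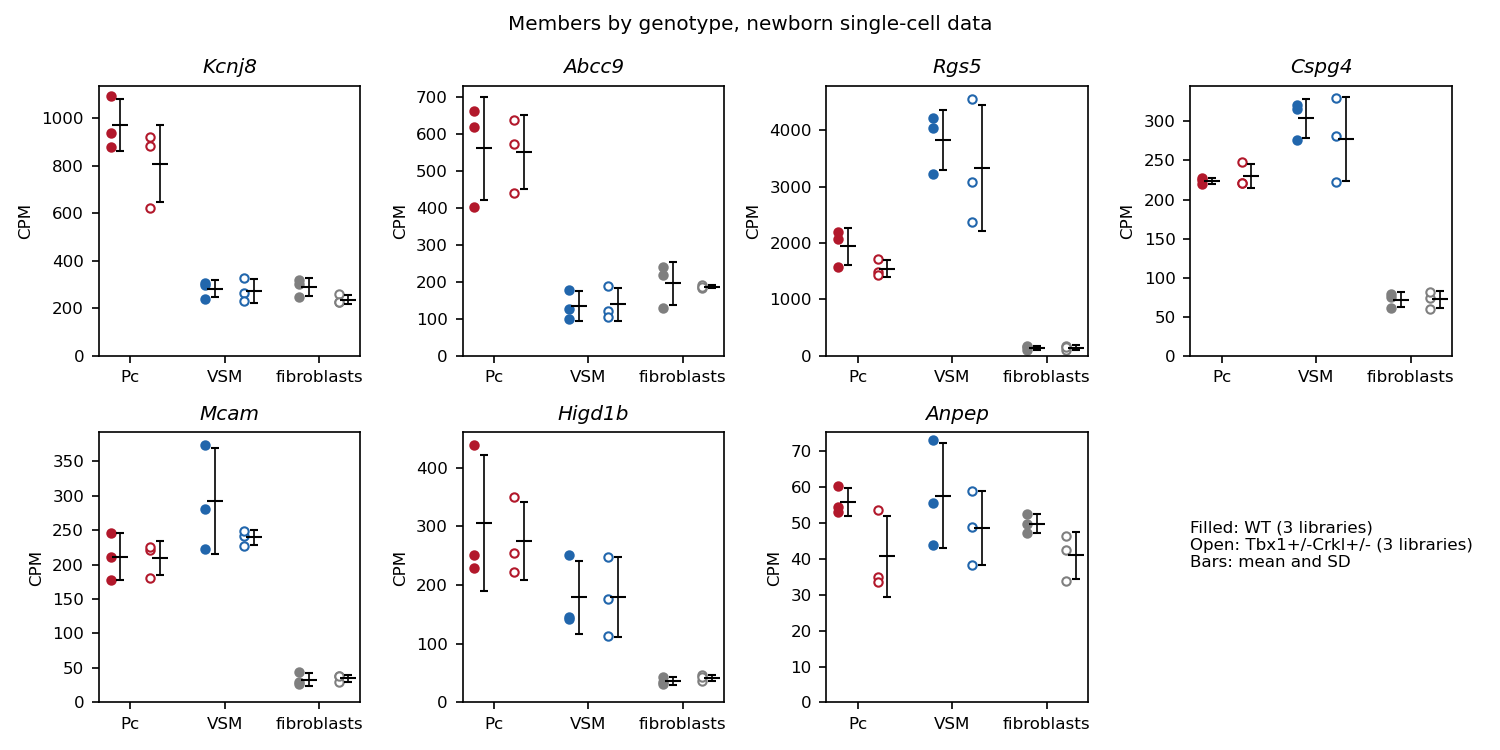
Level of each of the 7 genes in CPM in newborn Pc, VSM and fibroblasts, for 3 libraries labelled Tbx1+/-Crkl+/- and 3 from WT littermates. Points are libraries and bars the group mean and SD. The groups overlap for Kcnj8 in Pc (623 to 921 against 879 to 1091 CPM), and no member was called.

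Bulk sorting gave an account that did not rest on the subtype calls, since none of the sorting molecules is encoded by a member. In Ly51+gp38- cells, the sort nearest to mural cells, Kcnj8 had a lowest, median and highest level of 1136, 1922 and 2109 CPM at P0. In gp38+CD26- fibroblasts it was 383, 811 and 953, in gp38+CD26+ fibroblasts 47.6, 135.2 and 177.8, and in CD31+ endothelium at most 11.1 CPM. Abcc9 was 883, 1140 and 1382 CPM in Ly51+gp38- cells, 565, 674 and 864 in gp38+CD26- and 143.5, 230.6 and 321.8 in gp38+CD26+. No range of one population met another for either gene, and the CD26- fibroblasts held clear levels of both. The mean of Kcnj8 in Ly51+gp38- cells was 2.52-fold that of gp38+CD26- cells at P0 and 5.09-fold at 4 weeks, and that of Abcc9 1.62-fold and 1.52-fold. In bulk, fewer cells of a type and less RNA per cell cannot be told apart.

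Rgs5 was also far higher in the Ly51+gp38- sort. It was 26789, 32355 and 37279 CPM in Ly51+gp38- cells at P0 against 533, 706 and 1306 in gp38+CD26- fibroblasts. Cspg4 was 135.2, 167.5 and 236.7 against 23.8 to 60.4 CPM, Mcam 121, 171 and 222 against 8.05 to 30.4, and Higd1b 116.7, 165.4 and 185.1 against 9.76 to 21.5. All 4 were without overlap, and the share of all genes that were so was not taken. Anpep was 494, 563 and 867 CPM in Ly51+gp38- cells, above 361 to 492 in gp38+CD26- fibroblasts without overlap (1.33-fold by the means) but within reach of gp38+CD26+ fibroblasts at 410, 641 and 725. At 4 weeks it overlapped gp38+CD26- cells and lay below the 825 to 1096 CPM of 5 gp38+CD26+ libraries, the other being the one of 25702 counts with 0. Mcam was shared with CD31+ endothelium, at 51.1, 134.3 and 161.3 CPM at P0. Rgs5 was also present outside mural sorts, at 2138 to 3347 CPM in medullary TEC at P0 against 34 to 104 in cortical TEC.

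In a fit of 48 bulk libraries, 6 of 7 members were higher in Ly51+gp38- cells than in the mean of both fibroblast populations at P0, where 7.58% of all genes were, and 6 of 7 at 4 weeks, where 11.1% were. At P0 the log2 fold changes were 2.51 ± 0.44 for Kcnj8 (edgeR adjusted p = 5.2e-05), 1.37 ± 0.36 for Abcc9 (0.0062), 8.58 ± 0.60 for Rgs5 (2e-14), 2.32 ± 0.55 for Cspg4 (0.0025), 4.53 ± 0.52 for Mcam (2.4e-08) and 5.4 ± 0.58 for Higd1b (2e-09). Anpep gave 0.09 ± 0.57 at P0 and −0.66 ± 0.59 at 4 weeks and was not called. Against gp38+CD26- fibroblasts alone, added after seeing the data, Kcnj8 (1.26 ± 0.53, adjusted p = 0.17), Abcc9 (0.61 ± 0.43, 0.56) and Cspg4 (1.80 ± 0.68, 0.11) were not called at P0, and at 4 weeks Kcnj8 was (2.29 ± 0.55, 0.0027) and Abcc9 was not (0.55 ± 0.43, 0.47). At 4 weeks all 6 gp38+CD26+ libraries had 0 Mcam counts, against 242 to 341.5 CPM in Ly51+gp38- cells, so no fold is given. Single-cell capsular fibroblasts CapFb2a held Mcam at 11.2 and 12.1 CPM at W4. Against CD31+ cells 6 of 7 were higher at both ages (13.7% and 16.6% of all genes), the exception being Mcam at 0.49 ± 0.59 (0.66) and 1.19 ± 0.60 (0.15). Reads of Abcc9 and of Mcam could not be told apart from those of the antisense genes 5330439B14Rik and Gm10687, since a stranded protocol is not stated. Label numbers of the bulk libraries have the same spacing in each population of an age. Whether the populations were sorted from the same thymi is not stated, and the fit of 48 libraries does not pair them.

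With age, the bulk channel pair had lower medians and Rgs5 a higher one. At 4 weeks Kcnj8 in Ly51+gp38- cells was 573, 996 and 1326 CPM, overlapping P0. Abcc9 was 364, 445 and 538, wholly below P0, and Rgs5 81871, 92808 and 106380, wholly above it. The ratio of the 4-week to the P0 mean was 0.553 for Kcnj8, 0.398 for Abcc9 and 2.92 for Rgs5. None of the 7 was called in the 48-library fit, where 9.06% of 15303 genes were (706 higher, 681 lower): Kcnj8 −0.67 ± 0.53 (edgeR adjusted p = 0.54), Abcc9 −1.14 ± 0.43 (0.088) and Rgs5 1.74 ± 0.61 (0.061). Without the gp38+CD26+ library of 25702 counts Rgs5 passed at 1.69 (0.0443), while the counts of members called against fibroblasts and endothelium stayed at 6 of 7. That fit takes its spread from all populations, and in simulated data it called 2% of 2-fold and 37% of 4-fold changes.

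The 12 Ly51+gp38- libraries alone, a fit added after seeing the data, called 6 of the 7, where 11.9% of 11949 genes were called: Kcnj8 −0.72 ± 0.20 (edgeR adjusted p = 0.027), Abcc9 −1.2 ± 0.14 (6.4e-05), Rgs5 1.68 ± 0.11 (1.2e-06), Cspg4 0.59 ± 0.18 (0.046), Mcam 0.84 ± 0.16 (0.0033) and Higd1b 0.52 ± 0.15 (0.03), with Anpep at −0.46 ± 0.16 (0.08). An exact two-sided permutation test on log2(CPM + 1), 6 against 6, gave −0.87 for Kcnj8 (p = 0.006494), −1.33 for Abcc9, 1.55 for Rgs5, 0.72 for Mcam and −0.58 for Anpep (each p = 0.002165, the smallest it can give), 0.39 for Higd1b (p = 0.01515) and 0.45 for Cspg4 (p = 0.03247). These p-values are unadjusted and rest on CPM without the scaling of the fit. The share of all genes that reached them was not taken, so they are a description. Anpep did not overlap between the ages, at 494 to 867 CPM at P0 and 312 to 461 at 4 weeks. Library names carried 2 prefixes of unstated meaning. Within the prefix DFCK, Kcnj8 overlapped between the ages (1136 to 2109 CPM at P0, 1088 to 1326 at 4 weeks), and within TXCK it did not (1855 to 2000 and 573 to 903).

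The sign of the Kcnj8 and Abcc9 values between P0 and 4 weeks in bulk was opposite to that in single-cell Pc and in Pc and VSM summed, where means were higher at W4. It was that of VSM, in which Kcnj8 was called and Abcc9 (−0.15 ± 0.14) was not, and of fibroblasts, in which both fell with a call. The difference between assays was not tested. Between P0 and 4 weeks the sum of VSM markers in the bulk sort went from a median of 2080 to 7382 CPM without overlap, that of fibroblast markers from 4711 to 2572, that of stress genes from 7757 to 3430, that of TEC markers from 95.8 to 540 and that of haematopoietic markers from 13.3 to 211. Their part in the bulk changes was not tested. Enpep, which encodes the sorting molecule Ly51, rose in single-cell Pc between P0 and W4 by 2.79 ± 0.15 (edgeR adjusted p = 9.8e-08), more than in VSM by 1.82 ± 0.26 (0.0018). The change with age in Ly51+gp38- cells differed from that in fibroblasts for 2 of 7 members, where 3.2% of all genes did: Cspg4 by 3.0 ± 0.84 (0.035) and Mcam by 5.26 ± 1.02 (0.0019), both towards the mural sort. Against gp38+CD26- fibroblasts alone neither passed, Mcam at 1.84 ± 0.84 (0.28) and Cspg4 at 2.43 ± 0.95 (0.17). Against gp38+CD26+ alone Mcam (8.67 ± 1.53, 0.00075) and Cspg4 (3.56 ± 1.0, 0.038) passed, as did Higd1b (4.16 ± 1.23, 0.049). No share of all genes is given beside these calls. The Mcam value of 5.26 is no exact fold, since gp38+CD26+ libraries at 4 weeks held 0 Mcam counts.

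**Figure D5:**
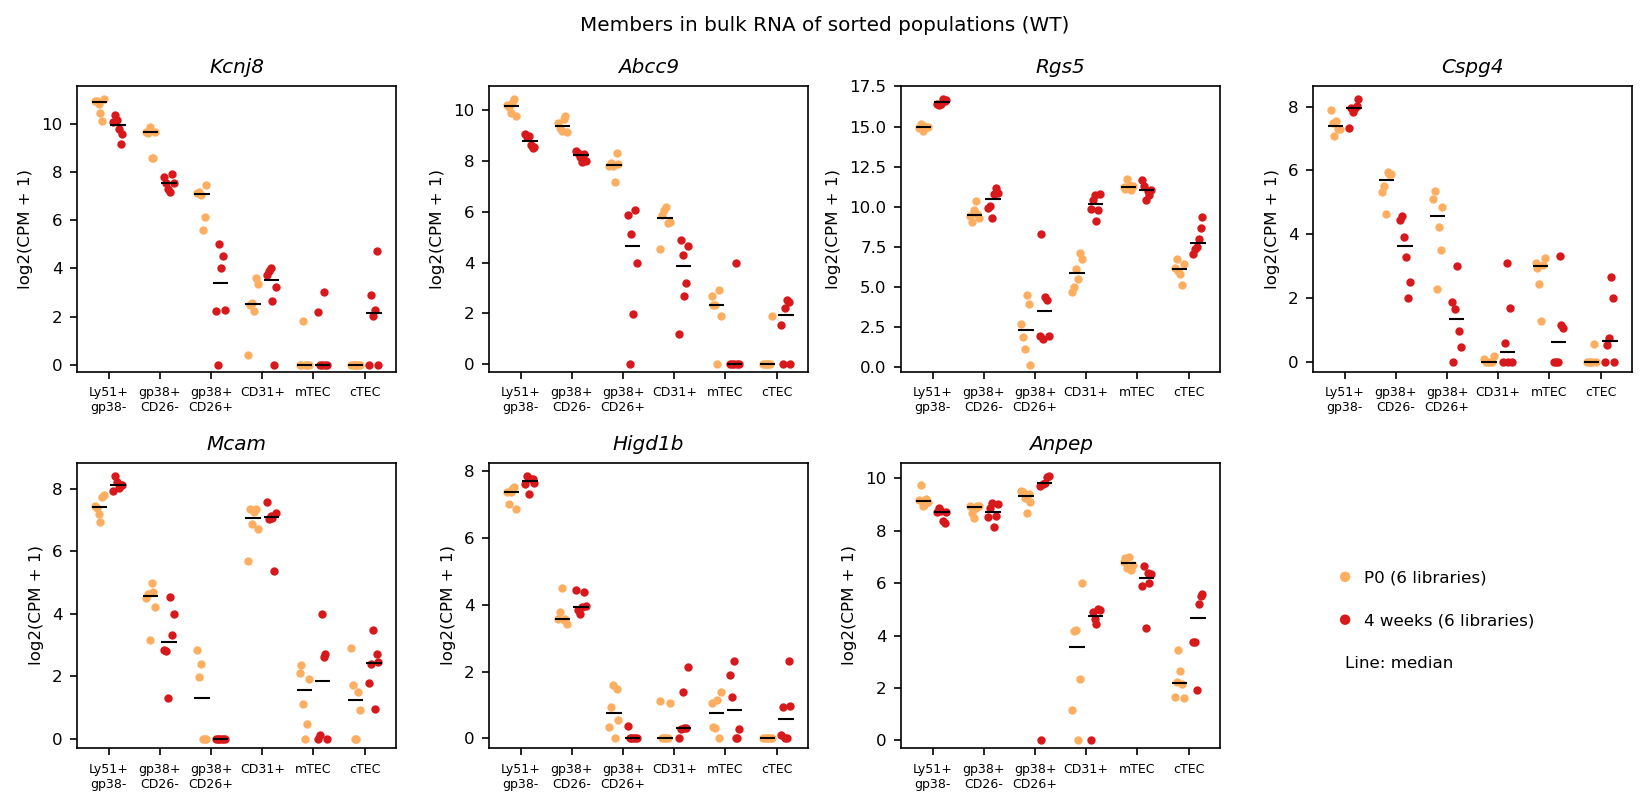
Level of each of the 7 genes, as log2(CPM + 1), in 6 bulk populations at P0 and 4 weeks, with 6 libraries each as points and medians as bars. Kcnj8 and Abcc9 step down from Ly51+gp38- cells through gp38+CD26- to gp38+CD26+ fibroblasts, and the Ly51+gp38- medians go from 1922 to 996 and from 1140 to 445 CPM with age while Rgs5 goes from 32355 to 92808.

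Over the 19 subtypes at W4, the genes whose mean levels followed each member most closely were named from Pearson's r on log2(CPM + 1), among 9195 genes. The points share libraries, and the NCC point rests on 7 cells in each library, so r is a description. For Kcnj8 these were Ccs (0.889), Colec11 (0.882) and Adra2a (0.873), with Abcc9 in place 10 (0.847). For Abcc9 they were Ifitm1 (0.930), Steap4 (0.919) and the endothelin receptor gene Ednra (0.916), and Kcnj8 came in place 37. Rgs5 was followed most closely by the smooth muscle genes Acta2 (0.954) and Lmod1 (0.938) and by Hnrnph3 (0.933). Cspg4 had Rdh5 (0.927), Sntb1 (0.920) and Fbxo9 (0.905), Mcam Ddx46 (0.932), Fxr1 (0.931) and Tmem243 (0.921), and Higd1b Pkig (0.968), Mprip (0.929) and Emid1 (0.921). Anpep, with Numbl (0.962), Obsl1 (0.959) and Gatsl2 (0.957), ran opposite to Mcam (r = −0.709).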

How the data were processed

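Droplet 3′ single-cell libraries (36208 and 21451 cells) and 84 bulk libraries of mouse thymic stroma were read from deposited tables. Per the labels and methods, UMI counts came from Cell Ranger 3.1.0, after which the authors kept singlets with over a set number of genes and few mitochondrial UMIs, and deposited the counts with their subtype annotation. The deposited bulk counts came from tools listed as STAR 2.5.3a and HTSeq, with mm10 and GRCh38 named as builds without their roles, and strandedness is not given in the sources used here. Rows naming no gene took 7.814 to 29.4% of bulk counts and were left out.

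UMIs were summed per library and subtype (at least 20 cells) and tested with edgeR 4.0.16 in R 4.3.3 (filterByExpr, TMM, quasi-likelihood, Benjamini-Hochberg adjustment over all genes, threshold 0.05, two-sided). Ages shared 1 fit per subtype, genotype was 3 against 3, the comparison of Pc with VSM had the library as a term, and bulk used 48 nonepithelial libraries. Shares were thinned to 2000 UMIs per cell, and cells below that were left out. Promoters, up to 250 bases, were from RefSeq on GRCm38.p6. No doublet caller was run again, since doublets had been removed before deposit. Alternatives were DESeq2 1.42.0, its size factors, no filter, leaving out libraries and the replicate number as a block. Scripts were tested on simulated counts. The members and gene lists were chosen with earlier results of these data known. The genes to name were the members in every comparison, some of them as a range or count, and of each list up to 2 genes with the largest change in each direction among those called, with Kcnj11, Abcc8 and Enpep. One gene that this rule names is not reported here. Shares cover counting error only, and each value after ± is an SE of the fit or an SD over libraries.

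Same-numbered libraries were checked for pairing by the correlation of their deviations from group means in Pc. The values were 0.191, −0.142 and −0.311 between genotypes and 0.051, 0.037 and 0.019 between ages, so the numbers were not taken to pair the libraries.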

Additional observations from a re-analysis of the deposited data

Results flagged for a closer look

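Pc and VSM, drawn from the same counts with Kcnj8 as a pericyte marker, differed in their changes with age. The test of the difference itself does not allow for how the subtypes were drawn. On the log2 scale this difference was 1.67 for Kcnj8, 1.73 for Abcc9 and 1.24 for Higd1b from E16.5 to P0, and 1.57 for Kcnj8, 0.70 for Abcc9, −0.91 for Cspg4 and −1.95 for Higd1b from P0 to W4, where a positive value means towards Pc. In bulk the change with age of Ly51+gp38- cells differed from that of gp38+ fibroblasts by 5.26 for Mcam and 3.0 for Cspg4. Against gp38+CD26- cells alone neither passed (Mcam 1.84, edgeR adjusted p = 0.28, and Cspg4 2.43, 0.17), and the first Mcam value is set against gp38+CD26+ libraries that had 0 Mcam counts at 4 weeks.

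In 22 of 98 combinations of a gene and a group of 6 bulk libraries, 1 library lay far from the other 5. Chance flags about 1 in 20 such groups, a share that does not hold where 5 libraries are at 0 and 1 is above it, so no excess over chance is read from the count. Most were TEC or endothelial groups. Kcnj8 reached 25.78 CPM in 1 cTEC and 22.56 in 1 mTEClo library at 4 weeks and 2.5 in 1 mTEC library at P0. Abcc9 reached 2.77 CPM in cTEC at P0 and 14.85 in mTEC and 7.29 in mTEClo at 4 weeks. Cspg4 reached 0.48 CPM in cTEC at P0, and 7.57 in CD31+, 8.998 in mTEC and 8.38 in mTEClo cells at 4 weeks. Mcam reached 6.49 CPM in cTEC at P0 and 14.87 in mTEC at 4 weeks. Higd1b reached 21.47 CPM in gp38+CD26- cells at P0, and 0.298 in gp38+CD26+, 3.97 in cTEC and 0.434 in mTEClo cells at 4 weeks, while 1 mTEChi library was low at 0.212 CPM beside 1.18 to 1.65 in the other 5. Anpep stood apart at 866.6 CPM in 1 Ly51+gp38- library at P0, where the other 5 were lower, at 62.59 in 1 CD31+ library at P0 and at 0 in 1 CD31+ library at 4 weeks. The gp38+CD26+ library of 25702 counts gave the Rgs5 value of 311.3 CPM and the Anpep value of 0 at 4 weeks.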

How the results depend on the processing

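Counts of called members held within 1.5 times the reported count under most alternatives. DESeq2 called 1 member in Pc from E16.5 to P0 and fewer genes (5690 in Pc over all ages, 754 and 1963 in Pc over the 2 intervals, 509 and 1204 in VSM, 217 and 282 for the difference between them), but 956 for the bulk age difference. It called 4, 0, 13 and 0 genes by genotype in Pc, VSM, fibroblasts and the difference. Without a filter on low counts 1710 genes were called in VSM from E16.5 to P0, 5 members and 1171 genes for the first difference between Pc and VSM and 1069 genes for the second, 48, 15, 129 and 3 genes by genotype, and 1 member for the bulk age difference. Against gp38+CD26- alone, 3 members and 901 genes were called at P0 and 0 members for the age difference. The bulk age change had 1 member without the shallow gp38+CD26+ library and 6 with the 12 Ly51+gp38- libraries alone, where 11.9% of all genes were called. The cause of these shifts was not tested.

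The replicate number as a block, although the numbers did not pair the libraries, left 2 members in fibroblasts from E16.5 to P0 and 25, 0 and 14 genes by genotype in Pc, VSM and fibroblasts. It ended no other member's call.

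Signs turned for these values, none of them called. By genotype these were −0.032 for Cspg4 in Pc, −0.070 for Abcc9 in VSM and −0.0059 for Mcam in fibroblasts without a filter, and for the difference −0.0021 for Abcc9 and −0.035 for Higd1b in DESeq2 and −0.0021 for Higd1b with its size factors. In bulk Anpep gave −0.17 against gp38+CD26+ alone and Abcc9 −0.063 for the age difference against gp38+CD26- alone, where it had been 0.71 ± 0.53. By thinned share the log2 ratio of Rgs5 in Pc over VSM at W4, a value without a test that was −0.88 by level, was 0.022, both shares being close to all cells.

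Leaving out 1 library at a time, called members and genes ranged from 1 to 4 and 801 to 3312 in Pc from E16.5 to P0, and genes from 2311 to 4275 from P0 to W4. In VSM they ranged from 1 to 4 members and 1.4e+02 to 1879 genes, then 1102 to 3692 genes. In fibroblasts they ranged from 0 to 6 and 321 to 5494, then 3 to 7 members. The Pc and VSM difference had 2 to 5 members and 75 to 1070 genes, then 261 to 836 genes. By genotype the genes ranged from 4 to 31 in Pc, 0 to 20 in VSM, 0 to 9 in fibroblasts and 0 to 3 for the difference. Values that crossed 0 were, by age, Higd1b in Pc (−0.27 to 0.048), Mcam in VSM (−0.13 to 0.34, then −0.024 to 0.45), Abcc9 (−0.45 to 0.13), Anpep (−0.10 to 0.12) and Rgs5 (−0.52 to 0.026) in fibroblasts, and the differences of Mcam (−0.12 to 0.31, then −0.060 to 0.38) and Anpep (−0.21 to 0.43). By genotype they were Abcc9 (−0.21 to 0.10), Cspg4 (−0.037 to 0.063), Higd1b (−0.43 to 0.23) and Mcam (−0.17 to 0.043) in Pc, Abcc9 (−0.20 to 0.25), Cspg4 (−0.25 to 0.038), Higd1b (−0.33 to 0.27) and Kcnj8 (−0.18 to 0.025) in VSM, Abcc9 (−0.31 to 0.046), Cspg4 (−0.13 to 0.058), Higd1b (−0.0046 to 0.35), Mcam (−0.11 to 0.24) and Rgs5 (−0.16 to 0.25) in fibroblasts, and the differences of Abcc9 (−0.11 to 0.13), Anpep (−0.58 to 0.10), Higd1b (−0.19 to 0.22) and Rgs5 (−0.21 to 0.093).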
